A study of Mus musculus with 4 samples.

Results

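The non-collagen extracellular matrix genes of the mouse left ventricle are described here, in 5 classes: basement membrane, elastic fibre, matricellular protein, proteoglycan and crosslinking enzyme. They were chosen by a list of 48 gene symbols, matched to the array's probes by current or older symbol, and a gene was used where its probe had a value on all 4 arrays. Of the 48 genes, 47 had a probe and 45 had a value on all 4 arrays, out of 14039 genes measured in that way. Lamb1 had no probe in the annotation used here, Thbs1 had a value on 2 arrays and Tnxb on 3, and these 3 genes are not compared. Each of the 47 genes was represented by 1 probe, and versican (Vcan) was found by its older symbol, Cspg2. The 45 genes were 8 of the basement membrane, 14 of elastic fibres, 13 matricellular genes, 7 proteoglycans and 3 crosslinking enzymes.

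The series examined the pressure-loaded heart in mice that lack STIM1, a calcium sensor of the endoplasmic reticulum which opens Orai channels in the plasma membrane. Left ventricles came from STIM1KO mice after transverse aortic constriction (TAC, a tie that narrows the aortic arch), STIM1KO mice after a sham operation, WT mice after TAC and WT mice after a sham operation, with 1 array for each. All were male C57BL/6 mice, operated on at 10 weeks of age, in the TAC groups over a wire of 0.3 mm, and 14 weeks old when the heart was taken 4 weeks later. Average heart weight over body weight, given without a unit, was 4.9 in STIM1KO TAC and 4.5 in STIM1KO sham, against 6.7 in WT TAC and 4.1 in WT sham. The sources used here do not give how the Stim1 allele was made, in which cells it is missing or whether several ventricles were pooled for an array.

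The extracellular matrix of the heart is laid down mainly by fibroblasts, vascular cells and, for the basement membrane, also by the muscle cells that it ensheathes. Laminins and nidogens form the sheet beneath cells, microfibrils and elastin give recoil, small leucine-rich proteoglycans coat collagen fibrils, and lysyl oxidases crosslink collagen and elastin. Matricellular proteins carry signals rather than load, and several of them are known from the remodelling that follows pressure overload and infarction. The class of that name here is broader and also holds the fibrillar adhesion protein Fn1 and the filament-forming Matn2.

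The arrays gave 1 fluorescence intensity per probe, which was brought to a common distribution by quantile normalization on the log2 scale. Differences are therefore in log2 units of relative intensity, and no level is compared between genes, since probes differ in brightness for the same amount of RNA. With 1 array in each group there is no spread between animals, no difference can be tested, and precision is limited by how few arrays there are. A gene is counted as higher or lower at 1.5-fold, a log2 difference of 0.585. Across all genes the arrays correlated at 0.973 to 0.990, lowest for pairs with STIM1KO TAC. Genes are not independent replicates. Stim1 had intensities of 13.8 on STIM1KO TAC and 20.7 on STIM1KO sham, against 33.9 on WT TAC and 41.6 on WT sham. It was thus lower on both STIM1KO arrays, with log2 differences of -1.30 after TAC and -1.004 after sham. The sources used here do not say whether its probe lies inside the deleted part. The 12 heart muscle markers with values had median log2 intensities of 13.9 on STIM1KO TAC and 14.3 on STIM1KO sham, against 14.1 on WT TAC and 14.2 on WT sham. The brightest of these carry values shared between probes by the normalization.

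As dim probes vary more, each difference is also read against the central 95% of all genes in the same quartile of mean level, a description of these arrays and no test. In the brightest quartile this range ran from -0.72 to 0.80 in the STIM1KO response to TAC, from -0.45 to 0.48 in the WT response, from -0.77 to 0.74 between the TAC arrays and from -0.58 to 0.50 between the sham arrays. In the dimmest quartile it ran from -1.29 to 1.44 in the STIM1KO response and from -1.14 to 1.05 in the WT response. Of the 45 genes, 33 were at or above the median gene level (an intensity of 29.3) and 16 were in the brightest quartile. Lama2, Fbln2, Tnc, Fmod, Lox and Loxl2 were in the dimmest quartile.

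**Figure D1:**
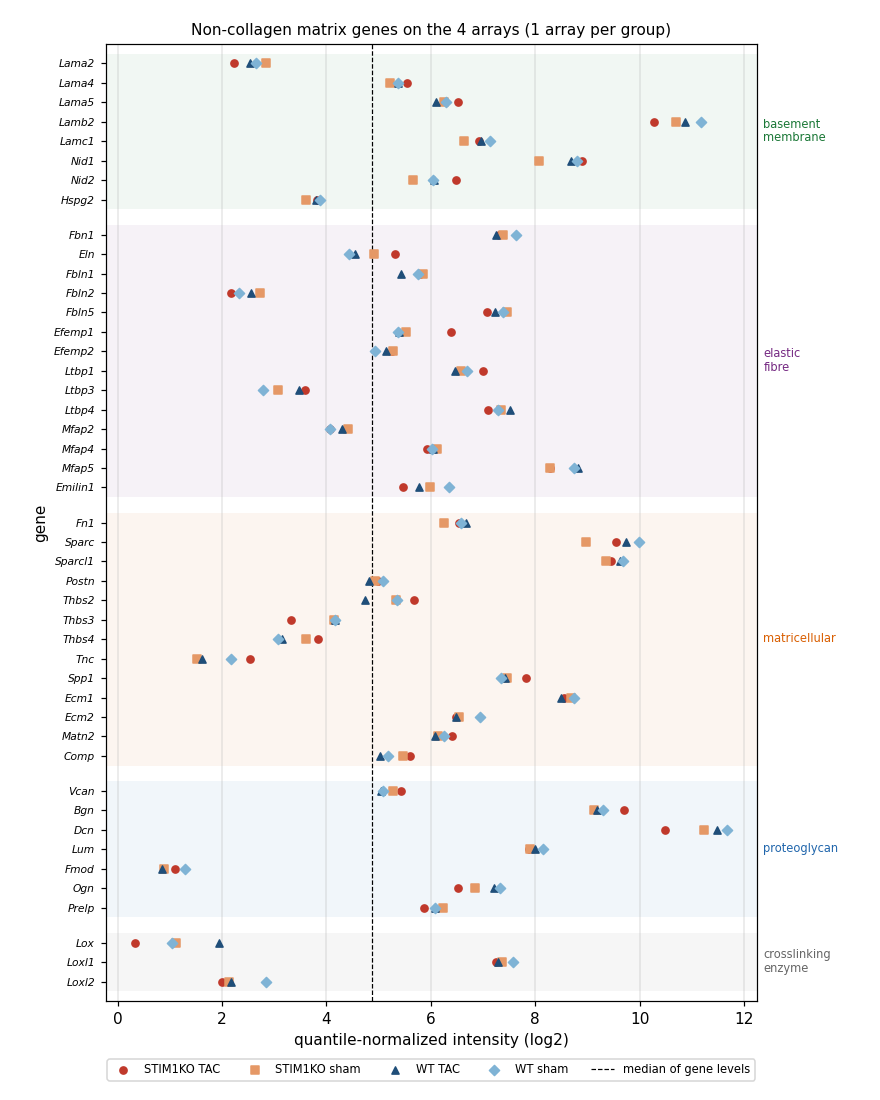
Quantile-normalized log2 intensity of each of the 45 matrix genes, by class, with the dashed line at the median gene level. Each point is 1 array, so there are no error bars, and the widest spread among genes above the median level is that of Dcn, with an intensity of 1433 on STIM1KO TAC and 3279 on WT sham.

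In WT mice, WT TAC against WT sham, most matrix genes were slightly lower on the TAC array. Of the 45 genes, 29 had a difference below 0 (64.44%), against 52.58% of all genes, and the median difference was -0.12, against -0.02 over all genes. Higher at 1.5-fold were 2 genes, the latent TGF-beta binding protein Ltbp3 and the lysyl oxidase Lox, and lower were 2, the thrombospondin Thbs2 and the lysyl oxidase relative Loxl2. These shares, 4.44% each way, were close to those of all genes, 4.77% higher and 4.94% lower. Fibronectin (Fn1), periostin (Postn) and osteopontin (Spp1), which are well known in the loaded heart, had differences of 0.10, -0.26 and 0.07.

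In STIM1KO mice, STIM1KO TAC against STIM1KO sham, 5 matrix genes were higher at 1.5-fold and 4 were lower. The higher ones were both nidogens (Nid1 and Nid2), the fibulin Efemp1, Sparc and tenascin C (Tnc), and the lower ones were Lama2, Thbs3, decorin (Dcn) and Lox. These are 11.1% and 8.89% of the members, against 12.0% and 10.9% of all genes. The median was 0.06, against 0.01 over all genes, and it was -0.05 among the 16 genes of the brightest quartile.

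Between the genotypes after sham, STIM1KO sham against WT sham, 28 of the 45 genes were below 0 (62.2%), against 50.74% of all genes. The median was -0.12, against -0.01 over all genes. No member was higher at 1.5-fold, against 5.05% of all genes, and Nid1, Sparc, Tnc and Loxl2 were lower, 8.89% against 6.67% of all genes.

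After TAC, STIM1KO TAC against WT TAC, the median was 0.01, against 0.03 over all genes. It was -0.03 with each array centred on its median and -0.02 with the values as deposited, so no direction is given to it. Elastin (Eln), Efemp1, Thbs2, Thbs4 and Tnc were higher at 1.5-fold, 11.1% against 11.4% of all genes. Thbs3, Dcn, osteoglycin (Ogn) and Lox were lower, 8.89% against 11.4% of all genes. Lamb2 and Mfap5, just under 1.5-fold, also passed it with each array centred on its median (-0.65 and -0.64) and with the values as deposited (-0.65 and -0.64).

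The difference of responses subtracts the WT response to TAC from the STIM1KO response and uses all 4 arrays. It was above 0 in 30 of the 45 genes and below 0 in 15 (33.33%, against 49.64% of all genes), with a median of 0.19, against 0.00 over all genes. Higher at 1.5-fold were 9 of the 45 genes, against 14.4% of all genes: Nid1, Nid2, Efemp1, Ltbp1, Sparc, Thbs2, Tnc, biglycan (Bgn) and fibromodulin (Fmod). Of these, Ltbp1, Bgn and Fmod were under 1.5-fold with each array centred on its median (0.54, 0.56 and 0.52). The fibulin Fbln2, Thbs3 and Lox were lower (6.67% of members, against 11.4% of all genes), and all 3 were below the median level. Dcn, a bright gene with -0.56, joined them with each array centred on its median (-0.67) and with the values as deposited (-0.60). Each response shares its sham array with the sham comparison and its TAC array with the TAC comparison, so the 5 comparisons do not stand apart from each other.

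**Figure D2:**
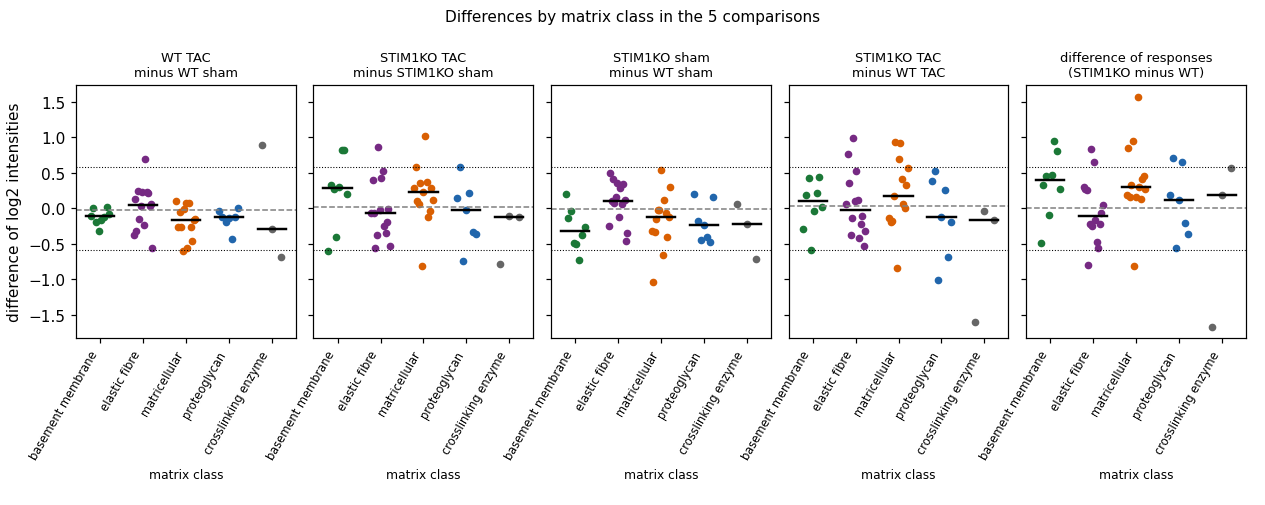
Log2 difference of each matrix gene (points) by class in the 5 comparisons, with bars at the class medians, a dashed line at the median of all 14039 genes and dotted lines at 1.5-fold. The basement membrane and matricellular medians lie above 0 in the STIM1KO response (0.28 and 0.23) and below 0 in the WT response (-0.12 and -0.17).

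Upstream sequences are printed for genes above the median level that stood out in the difference of responses, so that the letters before the start of genes with similar differences can be read side by side. Of 7 such genes, 5 had a single start in the RefSeq promoter table used (assembly GRCm38.p6), and the window of 4 lay wholly outside the gene's annotated span. That of Efemp1 reached into the gene and is not shown. Each sequence is the 250 bases before the start, 5′ to 3′ on the gene's strand: Nid1 at chr13:13437352-13437601 (+), Sparc at chr11:55420081-55420330 (-), Thbs2 at chr17:14694263-14694512 (-) and Bgn at chrX:73483351-73483600 (+). Capitals mark a GC box (GGGCGG) or a TATA box (TATAAA) on either strand, searched with overlaps allowed, and the AP-1 site (TGANTCA) was searched as well.
Nid1: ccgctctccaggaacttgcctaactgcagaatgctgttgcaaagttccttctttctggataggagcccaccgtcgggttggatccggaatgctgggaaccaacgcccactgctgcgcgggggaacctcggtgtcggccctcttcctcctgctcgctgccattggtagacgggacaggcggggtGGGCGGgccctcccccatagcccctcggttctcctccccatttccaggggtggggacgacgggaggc
Sparc: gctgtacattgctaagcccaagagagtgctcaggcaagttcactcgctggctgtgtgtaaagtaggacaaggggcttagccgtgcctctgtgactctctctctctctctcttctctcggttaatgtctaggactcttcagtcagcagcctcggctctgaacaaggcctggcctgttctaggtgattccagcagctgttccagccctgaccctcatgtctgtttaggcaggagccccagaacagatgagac
Thbs2: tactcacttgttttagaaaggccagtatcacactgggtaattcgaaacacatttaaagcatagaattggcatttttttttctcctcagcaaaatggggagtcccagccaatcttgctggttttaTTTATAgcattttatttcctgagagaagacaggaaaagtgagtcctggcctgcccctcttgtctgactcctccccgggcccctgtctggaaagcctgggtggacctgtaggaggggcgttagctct
Bgn: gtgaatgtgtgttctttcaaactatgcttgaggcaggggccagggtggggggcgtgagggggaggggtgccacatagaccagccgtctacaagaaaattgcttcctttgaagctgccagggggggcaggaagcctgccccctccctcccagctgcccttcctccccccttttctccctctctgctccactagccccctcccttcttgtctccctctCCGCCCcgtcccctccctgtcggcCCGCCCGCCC
Nid1 held 1 GC box, Thbs2 1 TATA box, Bgn 3 GC boxes and Sparc none of these letters, and the AP-1 letters were in none of the 4. Of 32851 windows of this length, 32.7% held the GC box, 12.4% the TATA box and 6.75% the AP-1 site. GGAAA, the core bound by NFAT, which calcineurin activates when calcium rises, was found 3 times in Thbs2, 1 time in Nid1 and not in Sparc or Bgn, on either strand, and 55.6% of all windows held it. No motif was shared by all 4 windows, and a match describes letters only.

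In the basement membrane class the nidogens stood out. Nidogens link the laminin network to collagen IV. Nid1 had an intensity of 476 on STIM1KO TAC and 271 on STIM1KO sham, against 412 on WT TAC and 449 on WT sham. The STIM1KO sham array was the low one, and the other 3 lay close together. Nid1 was thus 1.76-fold higher in the STIM1KO response (0.81) and 1.66-fold lower in STIM1KO sham than in WT sham (-0.73), with a WT response of -0.12 and a difference of responses of 0.94. In these 3 comparisons that include STIM1KO sham it lay outside the central range of genes of its level.

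Nid2 had 89.5 on STIM1KO TAC and 50.6 on STIM1KO sham, against 66.4 on WT TAC and 65.5 on WT sham. STIM1KO sham was again the lowest array and STIM1KO TAC the highest, with the WT arrays alike. Its STIM1KO response was 0.82, or 1.77-fold, its WT response 0.02 and its difference of responses 0.80, all inside the range of genes of its level.

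Laminins are heterotrimers of an alpha, a beta and a gamma chain. Lamb2, a beta chain of the muscle and vascular basement membrane, had 1246 on STIM1KO TAC and 1653 on STIM1KO sham, against 1868 on WT TAC and 2325 on WT sham. It was lower after TAC in both genotypes (-0.41 in STIM1KO, -0.32 in WT) and lower in STIM1KO after both operations (-0.58 after TAC, -0.49 after sham). Lamc1, the common gamma chain, had 122 on STIM1KO TAC and 98.9 on STIM1KO sham, against 125 on WT TAC and 141 on WT sham. The beta and gamma chains thus had differences of opposite sign in the STIM1KO response, -0.41 for Lamb2 and 0.30 for Lamc1. Lama4, an endothelial alpha chain, had 0.33 and Lama5, another vascular alpha chain, 0.27 in that response.

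Lama2, the alpha chain of the muscle fibre sheath, had a dim probe with 4.72 on STIM1KO TAC and 7.18 on STIM1KO sham, against 5.79 on WT TAC and 6.25 on WT sham. Its STIM1KO response of -0.61 was inside the wide range of dim genes and was -0.31 with an offset of 5.49 added before the log. Perlecan (Hspg2), the heparan sulfate proteoglycan of the sheet, had 0.20 in the STIM1KO response and -0.08 in the WT response. As a class, 7 of 8 genes were below 0 between the sham arrays, with a median of -0.32, and 6 of 8 were above 0 in the STIM1KO response, with a median of 0.28. The low STIM1KO sham array enters both of these medians, with opposite sign.

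Endothelial markers, which belong to a cell type that makes laminins and nidogens, differed in the same comparison. All 16 had a value on all 4 arrays, and 15 were below 0 between STIM1KO sham and WT sham, with a median of -0.37. Their summed intensity was 3889 on STIM1KO TAC and 3762 on STIM1KO sham, against 4816 on WT TAC and 5315 on WT sham. In the STIM1KO response, 10 of 16 were below 0 with a median of -0.28, where the basement membrane class had a median of 0.28. Macrophage markers were below 0 between the sham arrays in 13 of 15, with a median of -0.18. The part of either cell type in the result was not tested, and in whole tissue fewer cells of a type and less RNA per cell cannot be told apart.

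**Figure D3:**
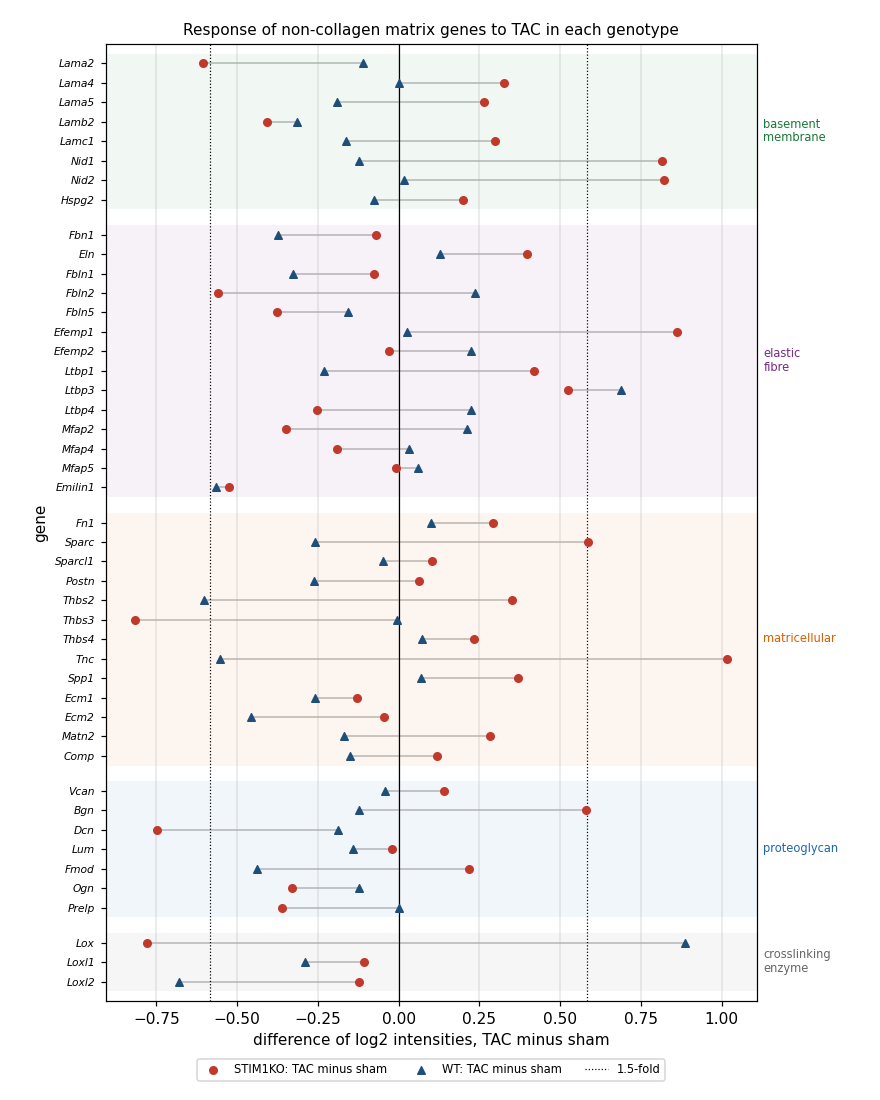
Log2 response to TAC of each matrix gene in STIM1KO and in WT mice, in log2 units, with dotted lines at 1.5-fold. Each pair of points is 1 gene, and for Nid1, Nid2, Efemp1 and Sparc the STIM1KO point lies past the line (0.81, 0.82, 0.86 and 0.59) while the WT point lies near or below 0 (-0.12, 0.02, 0.03 and -0.26).

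Among elastic fibre genes, Efemp1 had the widest difference above the median level. Efemp1 encodes fibulin-3, a glycoprotein of the fibulin family found around elastic fibres and basement membranes. It had 83.8 on STIM1KO TAC and 46.1 on STIM1KO sham, against 42.1 on WT TAC and 41.3 on WT sham. The STIM1KO TAC array was high and the other 3 were close to each other. Efemp1 was 1.99-fold higher in STIM1KO TAC than in WT TAC (0.99), outside the range of genes of its level, and its STIM1KO response was 0.86 with a WT response of 0.03.

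Elastin itself (Eln), the recoiling core of the fibre, had 39.9 on STIM1KO TAC and 30.3 on STIM1KO sham, against 23.5 on WT TAC and 21.5 on WT sham. Both STIM1KO arrays exceeded both WT arrays, by 0.76 after TAC and 0.49 after sham. Both differences lay inside the range of genes of its level. The microfibril genes did not share that order. Fibrillin-1 (Fbn1), the main chain of microfibrils, had 158 on STIM1KO TAC and 166 on STIM1KO sham, against 152 on WT TAC and 197 on WT sham. Mfap5, a microfibril-associated glycoprotein, had 309.9 on STIM1KO TAC and 312 on STIM1KO sham, against 449.7 on WT TAC and 431 on WT sham. Mfap5 was the reverse of elastin, with both STIM1KO arrays below both WT arrays by 0.54 after TAC and 0.47 after sham.

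The latent TGF-beta binding proteins tether the growth factor TGF-beta to microfibrils. Ltbp1 had 127 on STIM1KO TAC and 95.2 on STIM1KO sham, against 88.3 on WT TAC and 104 on WT sham. Its responses to TAC had opposite sign, 0.42 in STIM1KO and -0.23 in WT, a difference of 0.65 that was 0.54 with each array centred on its median and so under 1.5-fold. Ltbp3 had 12.1 on STIM1KO TAC and 8.41 on STIM1KO sham, against 11.2 on WT TAC and 6.92 on WT sham. Both TAC arrays exceeded both sham arrays, by 0.52 in STIM1KO and 0.69 in WT. The WT value lay just outside the range of genes of its level, and both came from a dim probe (0.42 in WT with the offset). Ltbp4 had the reverse pattern of Ltbp1, with -0.25 in the STIM1KO response and 0.22 in the WT response.

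Emilin1, a glycoprotein at the surface of elastic fibres, had 44.3 on STIM1KO TAC and 63.7 on STIM1KO sham, against 55.1 on WT TAC and 81.5 on WT sham. It was lower after TAC in both genotypes, with differences of -0.53 in STIM1KO and -0.57 in WT, and the WT value lay just outside the range of genes of its level although under 1.5-fold. Fbln2, a fibulin with a dim probe, had 4.51 on STIM1KO TAC and 6.64 on STIM1KO sham, against 5.87 on WT TAC and 4.99 on WT sham. Its difference of responses was -0.80, inside the range of dim genes, and -0.40 with the offset. Fbln5, which guides elastin assembly, had 135 on STIM1KO TAC and 175 on STIM1KO sham, against 149 on WT TAC and 167 on WT sham. The remaining genes (Fbln1, Efemp2, Mfap2 and Mfap4) had differences between -0.56 and 0.35 in the 5 comparisons. Over the class, 10 of 14 genes were above 0 between the sham arrays, with a median of 0.10, the opposite side of the basement membrane class. The sign of that median was not kept in the brightest quartile, where it was -0.10. Smooth muscle and pericyte markers, from cells that make elastin, were 6 above and 6 below 0 between the sham arrays, and their summed intensity was 2007 on STIM1KO TAC and 2667 on STIM1KO sham, against 2303 on WT TAC and 2544 on WT sham. The part of these cells in the result was not tested.

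**Figure D4:**
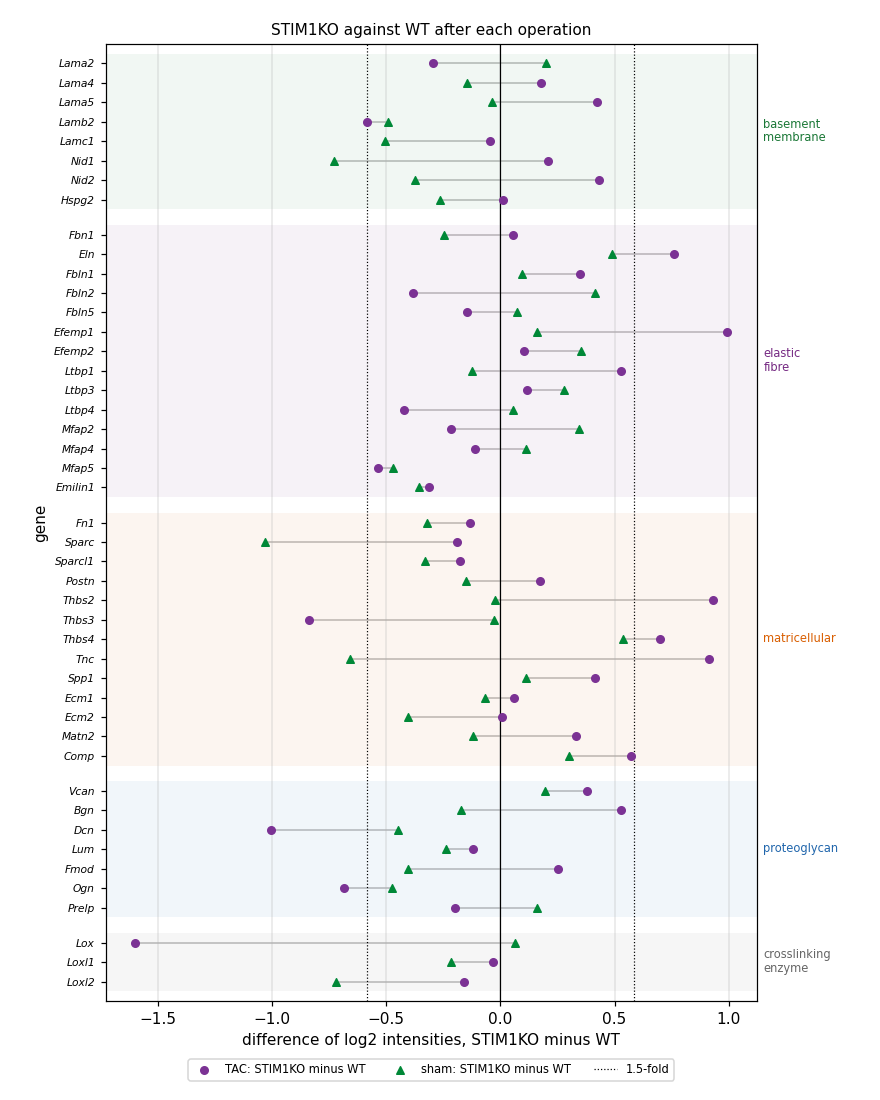
Log2 difference of STIM1KO minus WT for each matrix gene after TAC and after sham, in log2 units, with dotted lines at 1.5-fold. Sparc (-1.03) and Nid1 (-0.73) lie lowest among the bright genes after sham, and Dcn (-1.01) lies lowest among them after TAC.

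Matricellular genes were on balance above 0 in the STIM1KO response (10 of 13, median 0.23) and below 0 in the WT response (10 of 13, median -0.17). The difference of responses was above 0 in 12 of 13, with a median of 0.30, and Thbs3 was the exception. Below 0 were 23.08% in the STIM1KO response, 76.92% in the WT response and 7.69% in the difference of responses. Over all genes these shares were 49.05%, 52.58% and 49.64%. Between the sham arrays 10 of 13 were below 0, with a median of -0.12. The STIM1KO sham array enters that median and those of the STIM1KO response and the difference of responses, with opposite sign. Sparc, which binds collagen and is needed for its assembly into fibrils, had 750.0 on STIM1KO TAC and 499.9 on STIM1KO sham, against 855 on WT TAC and 1023 on WT sham. The STIM1KO sham array was the low one, as for Nid1. Sparc was 2.05-fold lower in STIM1KO sham than in WT sham (-1.03), well outside the range of genes of its level. The STIM1KO response of 0.59 stood at the 1.5-fold line and was 0.49 with each array centred on its median. Sparcl1, its close relative, had 702 on STIM1KO TAC and 653 on STIM1KO sham, against 794 on WT TAC and 820.5 on WT sham. It had the same order of arrays with a smaller sham difference of -0.33.

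The thrombospondins did not move together. Thbs2, a secreted inhibitor of vessel growth, had 51.1 on STIM1KO TAC and 40.1 on STIM1KO sham, against 26.9 on WT TAC and 40.7 on WT sham. STIM1KO TAC was the high array and WT TAC the low one, and the sham arrays were alike (-0.02). Its responses were 0.35 in STIM1KO and -0.60 in WT, and the TAC arrays differed 1.90-fold (0.93). The WT response, the TAC difference and the difference of responses (0.95) lay outside the range of genes of its level. The WT response was -0.58, under 1.5-fold, with the values as deposited.

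Thbs3 had 9.998 on STIM1KO TAC and 17.6 on STIM1KO sham, against 17.88 on WT TAC and 17.95 on WT sham. Here the STIM1KO TAC array alone was low, with differences of -0.84 to WT TAC and -0.82 to STIM1KO sham. Thbs4, a thrombospondin of the same pentameric subgroup as Thbs3 and Comp, had 14.3 on STIM1KO TAC and 12.18 on STIM1KO sham, against 8.83 on WT TAC and 8.40 on WT sham. Both STIM1KO arrays exceeded both WT arrays, by 0.70 after TAC and 0.54 after sham. The differences of Thbs3 and Thbs4 came from probes below the median level and lay inside the range of genes of that level. With the offset, the TAC difference of Thbs4 was 0.47, and for Thbs3 the STIM1KO response was -0.58 and the difference of responses -0.57, all under 1.5-fold. Comp, known from cartilage and from fibrotic heart, had 48.3 on STIM1KO TAC and 44.4 on STIM1KO sham, against 32.5 on WT TAC and 36.1 on WT sham, the same side as Thbs4 after both operations.

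Tnc, a large glycoprotein of wounds and remodelling tissue, had 5.81 on STIM1KO TAC and 2.87 on STIM1KO sham, against 3.08 on WT TAC and 4.53 on WT sham. The differences were large (1.02 in the STIM1KO response and 1.57 in the difference of responses), but the probe was in the dimmest quartile and all 5 lay inside its range. With the offset, the STIM1KO response was 0.44. Postn, a mark of activated fibroblasts, had 31.7 on STIM1KO TAC and 30.4 on STIM1KO sham, against 28.1 on WT TAC and 33.7 on WT sham. Spp1 had 228 on STIM1KO TAC and 176 on STIM1KO sham, against 171 on WT TAC and 163 on WT sham. Neither was past 1.5-fold in any comparison. Ecm1, a secreted protein that binds matrix components, had 376 on STIM1KO TAC and 411 on STIM1KO sham, against 360.0 on WT TAC and 430.7 on WT sham. Fn1, the fibrillar adhesion protein, Ecm2 and the filament-forming Matn2 had differences between -0.46 and 0.45.

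Among the small leucine-rich proteoglycans, decorin and biglycan, close relatives that both bind collagen fibrils and TGF-beta, had differences of opposite sign in the 3 comparisons that include STIM1KO TAC and of the same sign in the WT response and between the sham arrays. Dcn had 1433 on STIM1KO TAC and 2406 on STIM1KO sham, against 2879 on WT TAC and 3279 on WT sham. STIM1KO TAC was the lowest array and WT sham the highest, 2.29-fold apart. Dcn was 2.01-fold below WT TAC on STIM1KO TAC (-1.01) and 1.68-fold lower in the STIM1KO response (-0.75), both outside the range of genes of its level. The WT response was -0.19.

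Bgn had 838 on STIM1KO TAC and 560.4 on STIM1KO sham, against 580.2 on WT TAC and 632 on WT sham. The STIM1KO TAC array was high and the other 3 were closer to each other. Its STIM1KO response was 0.58, just under 1.5-fold, and its difference of responses was 0.70, which was 0.56 with each array centred on its median. Between the TAC arrays Bgn had a difference of 0.53 where Dcn had -1.01.

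Ogn, a small proteoglycan of the fibril surface that has been linked to heart mass, had 92.0 on STIM1KO TAC and 116 on STIM1KO sham, against 148 on WT TAC and 161 on WT sham. It followed the order of Dcn, with -0.68 between the TAC arrays and -0.48 between the sham arrays, inside the range of genes of its level. Lumican (Lum), which regulates fibril thickness, had 236 on STIM1KO TAC and 239.7 on STIM1KO sham, against 257 on WT TAC and 283 on WT sham. It had that order too, over a span of 0.26. The order of STIM1KO TAC below STIM1KO sham below WT TAC below WT sham was seen in 6 of the 45 genes (Lamb2, Thbs3, Dcn, Lum, Ogn and Loxl2), and 9.11% of all genes had it. Fmod, another collagen-binding member with a dim probe, had 2.15 on STIM1KO TAC and 1.85 on STIM1KO sham, against 1.81 on WT TAC and 2.45 on WT sham. Its difference of responses of 0.66 was 0.18 with the offset. Vcan, the large hyaluronan-binding proteoglycan, and Prelp had differences between -0.36 and 0.38.

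Fibroblast markers, from the main source of Dcn, were not uniformly lower on the same arrays. All 16 had a value on all 4 arrays. Between the TAC arrays 11 of 16 were below 0, with a median of -0.14, and in the STIM1KO response 9 of 16 were below 0, with a median of -0.06. Their summed intensity was 9800.0 on STIM1KO TAC and 12340 on STIM1KO sham, against 11811 on WT TAC and 14149 on WT sham. Most of the span of that sum came from the brightest probe, gelsolin (Gsn), with 4373 on STIM1KO TAC and 6332 on STIM1KO sham, against 5949 on WT TAC and 8111 on WT sham. Their part in the result was not tested.

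**Figure D5:**
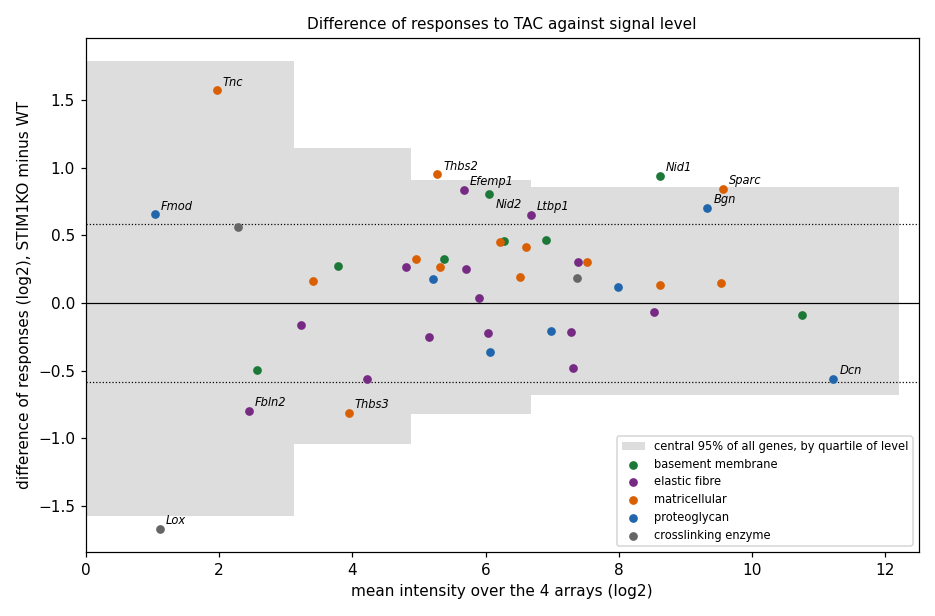
Difference of responses against mean intensity of the 45 matrix genes (points, coloured by class), both in log2 units, with dotted lines at 1.5-fold and grey bands for the central 95% of all genes in each quartile of level. Nid1 (0.94) and Thbs2 (0.95) lie above the central range of genes of their level, and Tnc (1.57) and Lox (-1.67) lie at the dim end, where the band is widest.

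The 3 crosslinking enzymes showed no common pattern. Loxl1, which acts on elastin, had 153 on STIM1KO TAC and 165 on STIM1KO sham, against 156 on WT TAC and 191 on WT sham, a narrow span with WT sham at the top. Lox, the enzyme that crosslinks both collagen and elastin, had 1.26 on STIM1KO TAC and 2.17 on STIM1KO sham, against 3.83 on WT TAC and 2.07 on WT sham. The sham arrays were alike and the responses had opposite sign, -0.78 in STIM1KO and 0.89 in WT. The difference between the TAC arrays (-1.60, or 3.03-fold) and the difference of responses (-1.67) lay outside even the wide range of dim genes. With the offset they were -0.46 and -0.48, under 1.5-fold. Loxl2, which crosslinks collagen IV, had 4.02 on STIM1KO TAC and 4.38 on STIM1KO sham, against 4.49 on WT TAC and 7.21 on WT sham. The WT sham array alone was high for it, and its sham difference of -0.72 and WT response of -0.68 lay inside the range of dim genes. With the offset they were -0.36 and -0.35, under 1.5-fold.

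Over the 45 genes, the highest array was STIM1KO TAC for 16 and STIM1KO sham for 8, against WT TAC for 4 and WT sham for 17. STIM1KO TAC was the highest array for 35.56% of members and 36.85% of all genes, and STIM1KO sham for 17.78% of members and 19.82% of all genes. WT TAC was the highest array for 8.89% of members and 17.34% of all genes, and WT sham for 37.78% of members and 25.99% of all genes. The WT response and the STIM1KO response share no array. Across the 45 genes they had a Pearson correlation of -0.13 (Spearman -0.02), against 0.17 (0.19) across all genes. Among the 33 members at or above the median level the correlation was 0.18 (0.21), so the negative value was not kept without the dim members. Of the members, 14 were lower after TAC in both genotypes and 8 higher in both, while 15 were higher in STIM1KO and lower in WT and 7 the reverse. Prelp, with equal intensities on both WT arrays, is in none of these. The genotype differences after TAC and after sham also share no array, and they correlated at 0.20 (0.23) across members and 0.19 (0.23) across all genes. Among the 33 members at or above the median level they correlated at 0.45 (0.48). The all-gene correlations were not limited to that level. These correlations describe probes that share arrays, normalization and tissue.

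Other genes of the matrix were read from chosen lists. Of 22 collagen chains 18 had a value on all 4 arrays. In the WT response 14 of 18 were below 0 (median -0.16), with Col4a1 alone higher at 1.5-fold (0.63; 5.56%, against 4.77% of all genes). In the STIM1KO response 12 of 18 were above 0 (median 0.04), with 3 higher (16.67%, against 12.0% of all genes) and none lower at 1.5-fold (against 10.9%), led by Col1a2 (1.30) and Col5a1 (0.72), with Col1a1 (-0.53) and Col6a2 (-0.36) lowest. Col1a1 and Col1a2 encode the chains of the same fibril, collagen I. Col1a2 had 317 on STIM1KO TAC and 128 on STIM1KO sham, against 190.4 on WT TAC and 198 on WT sham. Col1a1 had 19.7 on STIM1KO TAC and 28.4 on STIM1KO sham, against 31.1 on WT TAC and 35.5 on WT sham. Col1a2 was thus low on STIM1KO sham and high on STIM1KO TAC, and Col1a1 was lowest on STIM1KO TAC. Between the sham arrays 11 of 18 chains were below 0 (median -0.31), and 3 were lower at 1.5-fold (16.67%, against 6.67% of all genes), led by Col4a2 (-0.66) and Col15a1 (-0.65). Between the TAC arrays the median was -0.04, with Col6a3 (1.07) and Col8a2 (0.87) highest and Col1a1 (-0.66) lowest. Col6a3 (8.36 to 17.5) and Col4a1 (13.4 to 22.7) were below the median gene level of 29.3 on all 4 arrays. Col1a1 was below that level on both STIM1KO arrays. In the difference of responses 13 of 18 were above 0 (median 0.12), 6 of them at 1.5-fold (33.33%, against 14.4% of all genes), and 1 was lower (5.56%, against 11.4%).

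Of 25 matrix proteases and inhibitors 20 had a value on all 4 arrays. In the STIM1KO response 12 were above and 8 below 0 (median 0.15), with 2 past 1.5-fold each way (10% each, against 12.0% and 10.9% of all genes). They were the inhibitor Timp4 (1.24) and the membrane protease Adam10 (0.93) on the higher side, and the stromelysin Mmp3 (-0.86) and the inhibitor Timp3 (-0.73) on the lower side. Timp4, an inhibitor prominent in heart, had 322 on STIM1KO TAC and 136 on STIM1KO sham, against 213 on WT TAC and 237 on WT sham. Timp3, the inhibitor that binds to the matrix, had 131 on STIM1KO TAC and 218 on STIM1KO sham, against 257 on WT TAC and 308 on WT sham. Timp4 thus had the order of Nid1, and Timp3 that of Dcn. In the WT response 14 of 20 were below 0 (median -0.14), with Adam17 alone higher at 1.5-fold (0.73; 5%, against 4.77% of all genes). Between the sham arrays 10 were on each side (median -0.02), with Mmp3 highest (1.40) and Timp4 lowest (-0.80). Between the TAC arrays the median was 0.10, with 3 higher and 2 lower at 1.5-fold (15% and 10%, against 11.4% each way of all genes). The difference of responses had a median of 0.15, with 3 higher and 1 lower (15% and 5%, against 14.4% and 11.4%).

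Of 26 matrix receptors 25 had a value on all 4 arrays, and their medians lay near 0 in both responses (0.02 in STIM1KO, -0.04 in WT) and between genotypes (-0.04 after TAC, -0.06 after sham). In the STIM1KO response 5 were higher and 4 lower at 1.5-fold (20% and 16%, against 12.0% and 10.9% of all genes), led by the syndecan Sdc3 (1.20) and the integrin chain Itga2 (0.67) on the higher side and by the laminin receptor Bcam (-0.92) and Itga9 (-0.82) on the lower side. Sdc3 (2.26 to 10.2), Itga2 (3.83 to 11.4) and Itga9 (4.39 to 9.89) were below the median gene level of 29.3 on all 4 arrays. In the WT response 2 were higher and 1 lower (8% and 4%, against 4.77% and 4.94%). The higher ones were again Sdc3 (1.65) and also Cd44 (0.91), and the lower one was Itga2 (-0.86). The difference of responses had a median of -0.19, with 3 higher and 4 lower (12% and 16%, against 14.4% and 11.4%). Bcam, which binds laminin alpha-5, had a difference of responses of -0.88, where Lama5 had 0.46.

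Markers of the other cell types were measured as well. Cardiomyocyte markers (12 of 13 with a value on all 4 arrays, Actc1 without) summed to 304151 on STIM1KO TAC and 283684 on STIM1KO sham, against 275289 on WT TAC and 266059.0 on WT sham, with medians between -0.08 and 0.06 in the 5 comparisons. The brightest of these probes carry rank values set by the normalization. For example, 38715 stood for Tnni3 on STIM1KO TAC and for Tnnt2 on STIM1KO sham and WT TAC. The order of the cardiomyocyte sums is therefore not read. Macrophage markers (15 of 16, Lyz2 without) had a median of 0.33 in the STIM1KO response, with 9 of 15 above 0, and summed to 3159 on STIM1KO TAC and 2482 on STIM1KO sham, against 2916 on WT TAC and 2838 on WT sham. Epicardial markers (7 of 8, Upk1b without) summed to between 85.3 and 99.9 on the 4 arrays. Blood cell markers (5 of 8 with a value on all 4 arrays) summed to between 99.3 and 141.5. The matricellular class summed to 2485.0 on STIM1KO TAC and 2127 on STIM1KO sham, against 2557 on WT TAC and 2873 on WT sham. Both sums were thus higher on the TAC array in STIM1KO, while in WT the macrophage sum was higher and the matricellular sum lower. Most macrophage markers did not share the higher WT sum, as 8 of 15 were below 0 in the WT response, with a median of -0.03. Sparc, at 750.0 on STIM1KO TAC and 499.9 on STIM1KO sham, made up most of the matricellular difference between the STIM1KO arrays. The part of these cells in the matrix results was not tested.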

How the data were processed

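Left ventricle RNA of 4 groups was measured on 4 arrays of 1 colour, and each array was assigned to its group by its title. Per the labels' protocols, amino allyl RNA was made from it and coupled to Cy5. The authors' values are linear intensities. In the deposited intensities each array had a median of 19.99 to 20.00, and dim probes were empty on some arrays. The sources used here do not give the background correction or the rule behind empty values. Of 23473 probes 19607 had a value on all 4 arrays, and each array had 21115 to 21782. Log2 values of these probes were quantile-normalized (limma 3.58.1, R 4.3.3, tables with Python 3.11.15), and the brightest probe stood for a gene. Names came from the platform annotation, with 3947 symbols updated through RefSeq names of assembly GRCm38.p6, and 6842 probes had no symbol here. Comparisons were differences of log2 values. No test was possible.

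Every listed gene was named by its class, with values on each array where it was past 1.5-fold in any comparison or bright in its class. The genes and lists were chosen with earlier results of these data known. Alternatives were median centring, values as deposited, adding 5.49 to each intensity before the log, the mean over probes, filters at the median and 75th percentile of level, a 2-fold threshold and, chosen after seeing the data, scaling without the STIM1KO TAC array. The steps were also run on simulated data with equal noise at every level. Dim probes vary more on these arrays, so that run does not give the accuracy of the calls here.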

Additional observations from a re-analysis of the deposited data

Results flagged for a closer look

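The results given here are those whose responses to TAC lay on opposite sides of 0 in the 2 genotypes, which is how they were picked, and with 1 array per group the difference was not tested. The median response of all 45 genes was 0.06 in STIM1KO and -0.12 in WT, a difference of responses with a median of 0.19 over the genes. By class, that median was 0.39 for the basement membrane (0.28 in STIM1KO and -0.12 in WT), 0.30 for matricellular genes (0.23 in STIM1KO and -0.17 in WT) and -0.12 for elastic fibres (-0.07 in STIM1KO and 0.05 in WT). The opposite signs were not kept throughout: the elastic fibre WT median was -0.066 and -0.049 under the median and 75th percentile filters, and the STIM1KO median of all members was -0.0455 under the 75th percentile filter.

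Of the 12 genes past 1.5-fold in the difference of responses, 9 had responses of opposite sign, and Nid2, Efemp1 and Thbs3 did not. The value was 0.94 for Nid1, 0.65 for Ltbp1, 0.84 for Sparc, 0.95 for Thbs2 and 0.70 for Bgn, all above the median level. It was 1.57 for Tnc, 0.66 for Fmod, -0.80 for Fbln2 and -1.67 for Lox, whose probes were in the dimmest quartile. The WT response was above 0 and the STIM1KO response below 0 in Fbln2 and Lox, and the other 7 had the reverse.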

How the results depend on the processing

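Of the values of single genes under the alternatives, 1203 kept their side of 1.5-fold and 32 did not, and no gene past 1.5-fold changed sign. Of those kept, 225 under the mean over probes and 165 and 80 under the filters could not change, as these settings left each value as it was. The changes were 7 with median centring, 7 with the values as deposited and 18 with the offset. No replicate could be left out and no paired analysis was possible because each group had 1 array. Counts out of 45, with the counts under alternatives, were as follows. In the WT response the 2 lower genes were 1 with the values as deposited, 0 with the offset, 1 at the median filter, 0 at the 75th percentile and 0 at 2-fold, and the 2 higher genes were 0 under the offset, both filters and 2-fold. In the STIM1KO response the 5 higher genes were 3 with the offset, 2 at the 75th percentile and 1 at 2-fold, and the 4 lower genes were 1 with the offset, 1 under each filter and 0 at 2-fold. Between the sham arrays the 4 lower genes were 2 with the offset, 2 under each filter and 1 at 2-fold. Between the TAC arrays the 5 higher genes were 3 with the offset, 2 at the median filter, 0 at the 75th percentile and 0 at 2-fold, and the 4 lower genes were 2 under each filter and 2 at 2-fold, but 6 with median centring and as deposited, where Lamb2 and Mfap5 joined. In the difference of responses the 9 higher genes were 3 at the 75th percentile and 1 at 2-fold. With median centring Ltbp1 (0.54), Bgn (0.56) and Fmod (0.52) fell under 1.5-fold, and with the offset Fmod did (0.18). The 3 lower genes were 0 with the offset, 0 under each filter and 1 at 2-fold. They were 4 with median centring and as deposited, where Dcn joined. As deposited, Loxl2 also joined the higher genes of the difference of responses (0.635). In the STIM1KO response Ltbp3 then joined the higher genes (0.65), and Lama2 fell under 1.5-fold (-0.49). Filters leave 33 or 16 of the genes, and the offset shrinks dim differences by construction. The median of the list was -0.0455 at the 75th percentile in the STIM1KO response and -0.29 there in STIM1KO sham minus WT sham. In STIM1KO TAC minus WT TAC it was -0.027 with median centring, -0.022 as deposited and -0.13 at the 75th percentile. Class medians that changed sign were the elastic fibre WT response (-0.066 at the median filter, -0.049 at the 75th percentile) and its sham difference (-0.10 at the 75th percentile), the TAC differences of basement membrane (-0.045) and matricellular genes (-0.0585) at the 75th percentile, and the proteoglycan difference of responses (-0.007 with median centring, -0.044 under each filter). The cause of changes under median centring and values as deposited was not tested. The mean over probes changed nothing here by construction, since each gene had 1 probe.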
